A study of Mus musculus with 24 samples.

Results

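Vil1 encodes villin, an actin-binding protein. Its gene (Ensembl ENSMUSG00000026175, on chromosome 1) was followed here through livers of male C57BL6/J mice on 4 diets. It was 1 of the 15161 genes in the deposited count table, and was chosen by its read counts in these same libraries: near 0 with casein as the protein source, present with elemental amino acids, and higher there when methionine was restricted. Its levels are therefore described without a test.

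The mice were 4 months old, and RNA from liver was sequenced in 24 libraries, 6 for each diet. The casein MR diet was made with oxidized casein and held 0.17% methionine (MR, methionine restriction), and the casein control diet held 0.86%. Elemental amino acids (free amino acids in place of protein) made up the other diets, elemental MR with 0.17% and elemental control with 0.86% methionine. The label of the casein control diet does not say that its casein was oxidized, so on casein the restriction and the oxidation cannot be told apart. The labels do not state how many animals stand behind each library, and p-values measure only the spread between these libraries.

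Villin bundles actin filaments and, at high calcium, caps and severs them. It is best known from the core of microvilli, the finger-like protrusions of intestinal and kidney tubule cells, and the promoter of its gene is widely used to direct transgenes to the intestine. In the liver, villin lies in the microvilli of the bile canaliculi, the channels between hepatocytes into which bile is secreted, and in the cells that line bile ducts. Serum response factor and its cofactors, the CDX factors, HNF4A, the GATA factors, the KLF factors and ETS proteins have been tied to villin transcription in the gut or kidney.

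The stretch of 250 bases before the annotated start of Vil1 is shown because it holds a CArG box, the sequence bound by serum response factor. It is taken from RefSeq (GRCm38.p6, chr1:74409134-74409383, plus strand), and the capitals mark the CArG box.
Vil1 promoter: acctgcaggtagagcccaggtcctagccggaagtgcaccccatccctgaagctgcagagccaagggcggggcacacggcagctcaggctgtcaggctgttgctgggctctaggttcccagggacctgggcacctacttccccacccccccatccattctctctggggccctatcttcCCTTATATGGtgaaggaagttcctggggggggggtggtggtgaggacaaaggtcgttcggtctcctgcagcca
The box is 10 bases long and begins 73 bases before the start. A CArG box on either strand was found in 1.47% of the 32851 RefSeq promoter windows of this length. The CDX core TTTAT was not in this window and was found in 37.3% of all windows. The ETS core GGAA had 6 matches in the Vil1 window and was found in 93.4% of windows. These are matches of letters on both strands and say nothing of binding.

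Library totals ran between 13.5 and 20.8 M reads, with group means of 17.4 ± 1.85 M on casein MR, 15.98 ± 1.68 M on casein control, 16.5 ± 1.17 M on elemental MR and 17.2 ± 2.36 M on elemental control (SD, n = 6 each). The 5 hepatocyte markers checked (Alb, Ttr, Apoa1, Cps1 and Cyp3a11) were at 301 CPM (counts per M reads of the scaled library total) or more in every library. In casein MR library C_MR_3438, 8 skeletal muscle genes summed to 1777 CPM, against at most 62.4 CPM in the other 23 libraries. In elemental control library E_C_3430, the 9 measured genes of pancreatic acinar cells summed to 2397 CPM, against at most 71.9 CPM in the other 23. Neither library was high in Vil1: library C_MR_3438 had 0 Vil1 reads and library E_C_3430 had 34.

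Vil1 was barely detected in livers of mice fed casein. The 6 casein MR libraries held 0, 0, 0, 1, 1 and 5 Vil1 reads, and the 6 casein control libraries held 0, 0, 1, 2, 7 and 8. A count of 0 allows up to 3 reads, which in these libraries is between 0.137 and 0.225 CPM. The mean level was 0.0605 ± 0.100 CPM on casein MR and 0.209 ± 0.256 CPM on casein control (SD, n = 6 each), and these 2 groups overlapped.

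With elemental amino acids Vil1 was counted in each of the 12 libraries. The elemental MR libraries held 91, 99, 130, 134, 144 and 195 reads, and the elemental control libraries held 34, 34, 37, 38, 46 and 50. In CPM the elemental MR libraries lay at 5.46, 5.58, 8.09, 8.35, 8.73 and 10.1, and the elemental control libraries at 1.82, 2.04, 2.38, 2.78, 3.004 and 3.08. The mean was 7.72 ± 1.83 CPM on elemental MR and 2.52 ± 0.520 CPM on elemental control (SD, n = 6 each). The lowest elemental MR library thus stood above the highest elemental control library, and the lowest elemental control library, at 1.82 CPM, stood above the highest casein library, at 0.567 CPM.

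From low to high, the order of the group means was casein MR, casein control, elemental control and elemental MR. Only the first 2 neighbours in this order overlapped. Of the 13441 genes with enough reads to be tested, Vil1 was the 1 gene (0.00744%) whose elemental MR libraries all exceeded its elemental control libraries, and whose elemental control libraries all exceeded its casein libraries. A complete separation of the 12 elemental from the 12 casein libraries, with elemental higher, was found for 2 genes (0.0149%), Vil1 and Ppfia1, a gene for a liprin scaffold protein. No gene had every casein library above every elemental library. A complete separation of elemental MR above elemental control was common by comparison and was seen for 435 genes (3.24%).

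**Figure D1:**
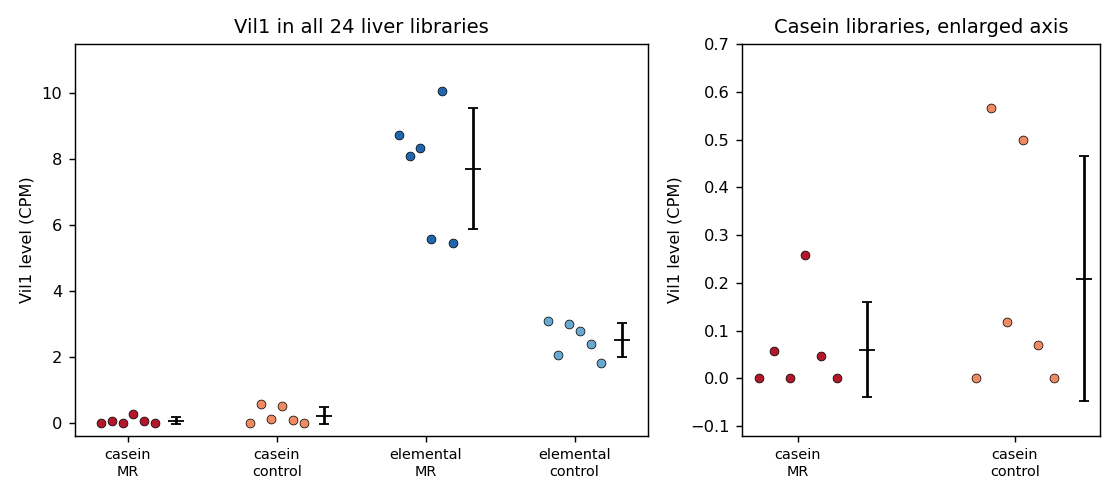
Vil1 level in CPM in each of the 24 libraries (points), with the group mean and SD beside them; the right panel repeats the casein groups on an enlarged axis. The elemental MR libraries lie between 5.46 and 10.1 CPM and the elemental control libraries between 1.82 and 3.08 CPM, while no casein library exceeds 0.567 CPM and 5 of them are at 0.

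Over pooled reads, Vil1 was 3.12 times as high on elemental MR as on elemental control, with a 95% counting interval of 2.70 to 3.63. On casein the ratio ran the other way: 7 reads in all on casein MR and 18 on casein control gave a ratio of 0.299, with an interval of 0.106 to 0.750. These intervals cover counting error only. The variance of the read counts was 10.4 times their mean on elemental MR and 1.11 times on elemental control. On casein MR it was 3.23 times the mean and on casein control 4.27 times, so the spread there was also wider than counting error. The lower level on casein MR thus rests on few reads in overlapping libraries.

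The contrast between the protein sources was larger. Casein control livers had 0.0813 times the Vil1 of elemental control livers (interval 0.0474 to 0.131), which is 12.3-fold lower. Casein MR livers had 0.00778 times the level of elemental MR livers (interval 0.00312 to 0.0161), a 129-fold lower level whose interval of 62.1 to 321 reflects the 7 reads in the casein MR group.

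The same differences were read from the edgeR fit over all genes, as log2 fold changes with approximate standard errors. These errors were derived from each fold change and its F statistic, and for Vil1 no test is drawn from them. Vil1 had a value of -1.63 ± 0.80 for casein MR minus casein control and 1.62 ± 0.30 for elemental MR minus elemental control. The difference between these diet effects, casein minus elemental, was -3.25 ± 0.87. For casein control minus elemental control the value was -3.58 ± 0.46, and for casein MR minus elemental MR it was -6.83 ± 0.48. Among the 13441 genes tested, Vil1 had the most negative value of all in both comparisons of casein with elemental, the 6th most negative difference between the diet effects and the 64th highest value for elemental MR minus elemental control. It stood 176th from the most negative for casein MR minus casein control. Fitted values for genes so near 0 depend on the prior count. Without casein MR library C_MR_3431, which held 5 of the 7 reads, the fit gave -2.90 for casein MR minus casein control, -4.52 for the difference between the diet effects and -8.10 for casein MR minus elemental MR. Without casein control library C_C_3429 the casein MR minus casein control value was -1.09. The median log2 fold change over all genes tested lay within 0.01 of 0 in each of the 5 comparisons.

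The estimated spread of Vil1 between libraries of a group was above the median of genes of like average level. Its biological coefficient of variation was 0.250, against 0.234 for the trend at its level. The fit draws each gene's estimate towards this trend, so their closeness is partly built in. Of the 500 genes closest to it in average level, with a median of 0.203, 114 varied more than Vil1. The coefficient of variation of the CPM values was 166% on casein MR and 123% on casein control, where single reads carry the value, against 23.8% on elemental MR and 20.7% on elemental control.

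Set against other genes per kilobase of exon, Vil1 changed its place in the liver's range of levels with the diet. It averaged 0.0170 CPM per kb on casein MR and 0.0588 on casein control, where 0.351% and 3.97% of 15121 genes were lower. On elemental MR it averaged 2.17 CPM per kb, above 54.2% of genes, and on elemental control 0.709 CPM per kb, above 32.3%. Vil1 on elemental MR was thus a gene of middling level, and on casein MR it was at the floor of the table.

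No other tested gene had the complete order of libraries seen for Vil1, which was chosen by these levels. That order therefore says nothing of the relatives of villin in particular. Of the 7 other members of the villin and gelsolin family listed, 5 were tested (Vill, Gsn, Capg, Svil and Flii), and Avil and Scin were not analysed here. None of the 5 passed the test (edgeR quasi-likelihood, Benjamini-Hochberg adjusted p under 0.05 over all genes) for elemental MR minus elemental control, where 13.4% of all genes did. For casein MR minus casein control 1 passed, against 23.3% of all genes. This was Svil, the gene for supervillin, which fell by 0.37 ± 0.12 on the log2 scale (adjusted p = 0.0314). Its call was lost when any 1 of 6 libraries was left out (C_MR_3419, C_MR_3425, C_MR_3431, C_C_3407, C_C_3421 or C_C_3429), with an adjusted p of up to 0.0945. None passed in either direction in the other 3 comparisons. Of all genes, 0.781% were higher and 1.56% lower (2.34% in all) by the difference between the diet effects, 0.0298% higher and 0.0744% lower (0.104% in all) by casein control minus elemental control, and 2.72% higher and 3.78% lower (6.5% in all) by casein MR minus elemental MR.

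Per kilobase, Vill, the villin-like gene and the closest relative in name, was at 0.0937 CPM per kb on casein MR, 0.0833 on casein control, 0.112 on elemental MR and 0.0573 on elemental control. It had at most 17 reads in any library, and its log2 fold change was 0.16 ± 0.49 on casein (adjusted p = 0.862) and 0.98 ± 0.51 on elemental amino acids (adjusted p = 0.227). Flii, the flightless homologue, averaged 6.08 CPM per kb on casein MR, 5.81 on casein control, 6.23 on elemental MR and 5.40 on elemental control. Gsn, the gene for gelsolin, which severs actin filaments, averaged 4.57, 5.88, 3.83 and 4.26 CPM per kb in the same order. The group means of these relatives thus lay much closer together than those of Vil1.

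Among other genes of microvilli, 8 fell and 1 rose with restriction on casein, and few were called on elemental amino acids. Of 27 genes listed for microvilli and the brush border, 20 were tested. For casein MR minus casein control, 1 rose and 8 fell, against 10.6% and 12.7% of all genes. For elemental MR minus elemental control, 0 rose and 2 fell, near the 6.78% and 6.64% of all genes. The median log2 fold change of the 20 genes was -0.09 on casein and -0.03 on elemental amino acids, close to the all-gene medians. Both genes that fell on elemental amino acids also fell on casein: Cobl, an actin nucleator, changed by -0.91 ± 0.12 on casein and -0.51 ± 0.12 on elemental amino acids. Slc9a3r1, a scaffold that ties membrane proteins to ezrin, changed by -0.56 ± 0.08 on casein and -0.33 ± 0.08 on elemental amino acids. The call of Myo6, a myosin that moves towards the base of microvilli and fell by 0.23 ± 0.07 on casein, was lost without C_C_3413 (adjusted p = 0.0626). In Cobl and Slc9a3r1 the direction on elemental amino acids was opposite to that of the Vil1 levels.

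The partners of villin in the core bundle of the microvillus were near the limit of detection. Pls1, the gene for plastin 1, lay between 0 and 0.273 CPM in casein MR libraries and between 0.187 and 5.22 CPM in casein control libraries. It fell by 3.20 ± 0.76 on the log2 scale on casein (adjusted p = 0.00237), though the groups overlapped and limma-voom gave an adjusted p of 0.0671. Without casein control library C_C_3407 the value was -2.24 (adjusted p = 0.0232). On elemental MR it lay between 0 and 0.998 CPM and on elemental control between 0.244 and 1.75 CPM (log2 fold change -1.14 ± 0.69, adjusted p = 0.316). Espn, the gene for the bundling protein espin, rose on casein by 1.30 ± 0.37 (adjusted p = 0.0111), with 0.671 to 1.76 CPM on casein MR and 0.0810 to 0.763 CPM on casein control, ranges that overlap slightly. For Espn the value on elemental amino acids was 0.30 ± 0.33 (adjusted p = 0.633). On casein these bundlers moved in opposite directions.

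Cdhr5 is a protocadherin that links the tips of neighbouring microvilli. It was the 1 tested gene of this list whose MR minus control value differed between the protein sources. This compares with 1.56% of all genes that were lower by this measure. The casein MR libraries lay at 44.9, 50.4, 50.9, 52.2, 52.5 and 53.3 CPM, and the casein control libraries at 57.2, 60.3, 70.6, 70.9, 76.8 and 79.8 CPM. The elemental MR libraries lay between 66.6 and 87.7 CPM with a median of 72.8, and the elemental control libraries between 62.5 and 75.8 CPM with a median of 70.6. The casein groups did not overlap, as for 6.18% of all genes with casein MR lower, while the elemental groups did. Cdhr5 fell by 0.45 ± 0.08 on casein (adjusted p = 9.76e-05) and had a value of 0.09 ± 0.08 on elemental amino acids (adjusted p = 0.541). The difference between these effects was -0.54 ± 0.11 (adjusted p = 0.00679). In casein MR against elemental MR, Cdhr5 was lower by a log2 value of -0.56 ± 0.08 (adjusted p = 3.32e-05), and 3 more genes of the list passed in that direction (Eps8l2, Myo1e and Cobl), against 3.78% of all genes. The calls of Eps8l2 (adjusted p = 0.0325) and Cobl (adjusted p = 0.0341) there were near the threshold. With 1 library left out, the log2 value stayed between -0.41 and -0.35 for Eps8l2 and between -0.50 and -0.37 for Cobl. Cobl lost its call (adjusted p up to 0.0964) without C_MR_3412, C_MR_3419, C_MR_3425, C_MR_3431, E_MR_3405, E_MR_3416 or E_MR_3423. Eps8l2 lost it (up to 0.0707) without C_MR_3412, C_MR_3431, C_MR_3433, C_MR_3438, E_MR_3403, E_MR_3405, E_MR_3416 or E_MR_3423. Myo1e, a membrane-bound myosin, was lower by a log2 value of -0.40 ± 0.09 (adjusted p = 0.0063) and kept its call throughout. Between the control diets no gene of the list passed, and Cdhr5 had a value of -0.02 ± 0.08.

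The canalicular membrane, where villin lies in hepatocytes, was covered by 13 genes, all tested. With restriction on casein 2 rose and 3 fell (Atp8b1, Ceacam1 and Dpp4), near the 10.6% and 12.7% of all genes. On elemental amino acids 4 rose and 2 fell, against 6.78% and 6.64% of all genes. Those that fell were Abcg2, by 0.48 (adjusted p = 0.00192), and Anpep, by 0.24 (adjusted p = 0.0105). Both were higher on casein MR than on elemental MR, Abcg2 by 0.50 (adjusted p = 0.00236) and Anpep by 0.27 (adjusted p = 0.00837). Abcb4, the phospholipid floppase, and Abcb1a, a multidrug transporter, rose on both: Abcb4 by 0.50 ± 0.08 on casein and 0.36 ± 0.08 on elemental amino acids. Abcb1a rose by 1.02 ± 0.30 on casein and 1.78 ± 0.30 on elemental amino acids. Abcg8, which forms a sterol transporter with Abcg5, had 0.40 ± 0.14 on elemental amino acids (adjusted p = 0.0483). Its call was lost without any 1 of 16 libraries (adjusted p up to 0.125) and kept when the library left out was E_MR_3403, E_MR_3416, E_C_3401, E_C_3417, E_C_3430, C_MR_3425, C_C_3413 or C_C_3436.

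Abcb11, the bile salt export pump, came closest to the Vil1 levels in this group. Its casein MR libraries lay at 245, 288, 299, 302, 322 and 324 CPM, and its casein control libraries at 236, 265, 299, 300, 307 and 331 CPM. The elemental MR libraries lay at 373, 439, 448, 455, 494 and 498 CPM, and the elemental control libraries at 295, 312, 321, 326, 334 and 366 CPM. The elemental MR group lay above the other 3, which overlapped one another. A separation of elemental MR above elemental control was seen for 3.24% of all genes, as given above. Abcb11 rose by 0.47 ± 0.08 on elemental amino acids (adjusted p = 2.13e-04), and on casein its value was 0.03 ± 0.08 (adjusted p = 0.823). The difference between the effects, -0.44 ± 0.11, passed with an adjusted p of 0.0382, but the call was lost without any 1 of 17 of the 24 libraries, where the adjusted p reached 0.0841. It was kept when the library left out was C_MR_3431, C_MR_3433, C_C_3407, C_C_3421, E_MR_3420, E_MR_3423 or E_C_3428. On casein MR against elemental MR it was lower, at -0.61 ± 0.08 (adjusted p = 1.52e-05). It differed from Vil1 in that casein control and elemental control overlapped, with a log2 value of -0.17 ± 0.08 (adjusted p = 0.417).

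**Figure D2:**
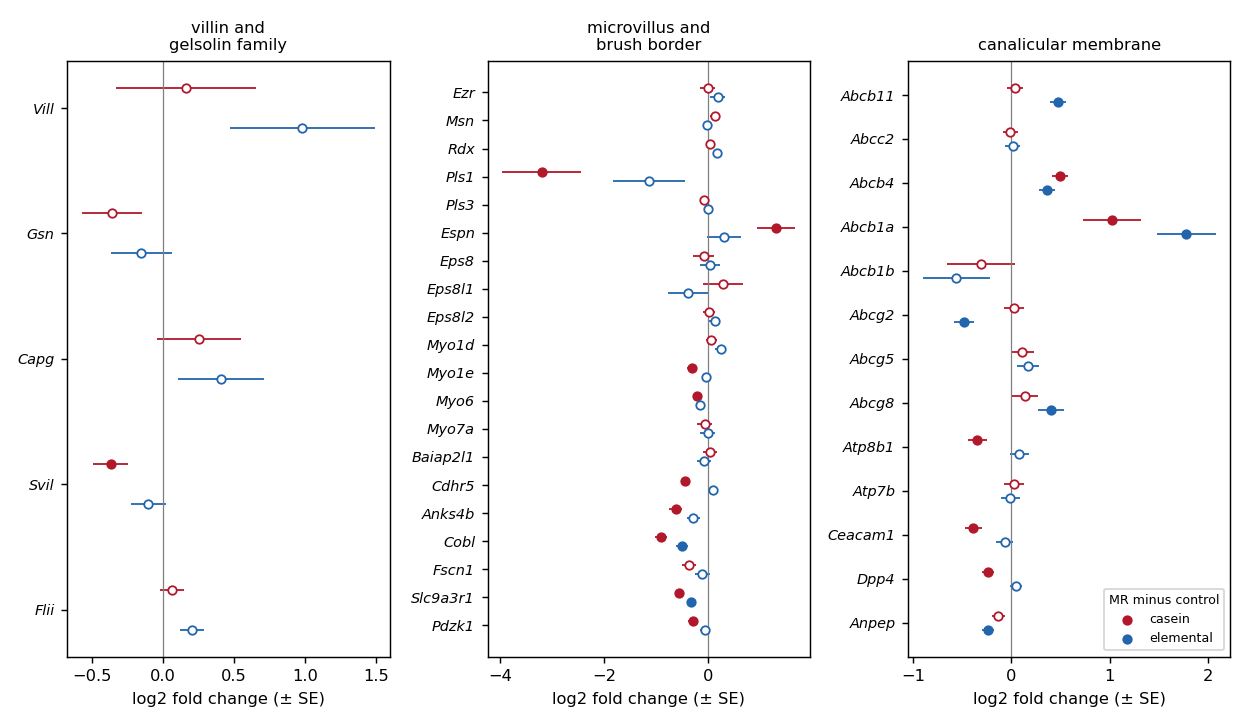
Log2 fold change with restriction for the tested genes of 3 lists, on casein (red) and on elemental amino acids (blue). Bars are ± SE, derived from the F statistic of the edgeR test. Filled points passed an adjusted p under 0.05. In the microvillus list 8 genes fell on casein and 2 on elemental amino acids, while Abcb11 rose on elemental amino acids by 0.47 and had 0.03 on casein.

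The factors tied to villin transcription were read from a list of their own. Of 15 listed genes 10 were tested, and Cdx1 and Cdx2 were not analysed here. On elemental MR against elemental control 0 of the 10 passed, against 13.4% of all genes. Srf, the gene for serum response factor, had 16.2 ± 1.28 CPM on elemental MR and 13.5 ± 1.13 CPM on elemental control (SD, n = 6 each), with a log2 value of 0.27 ± 0.09 and an adjusted p of 0.0614. On casein Srf had 16.6 ± 2.50 CPM with restriction and 15.7 ± 1.87 CPM without, a value of 0.09 ± 0.09 (adjusted p = 0.555). In casein MR against casein control 1 of the 10 rose, Gata6, by 0.43 ± 0.11 (adjusted p = 0.00447), and 0 fell, against 10.6% and 12.7% of all genes. None passed in the other 3 comparisons.

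**Figure D3:**
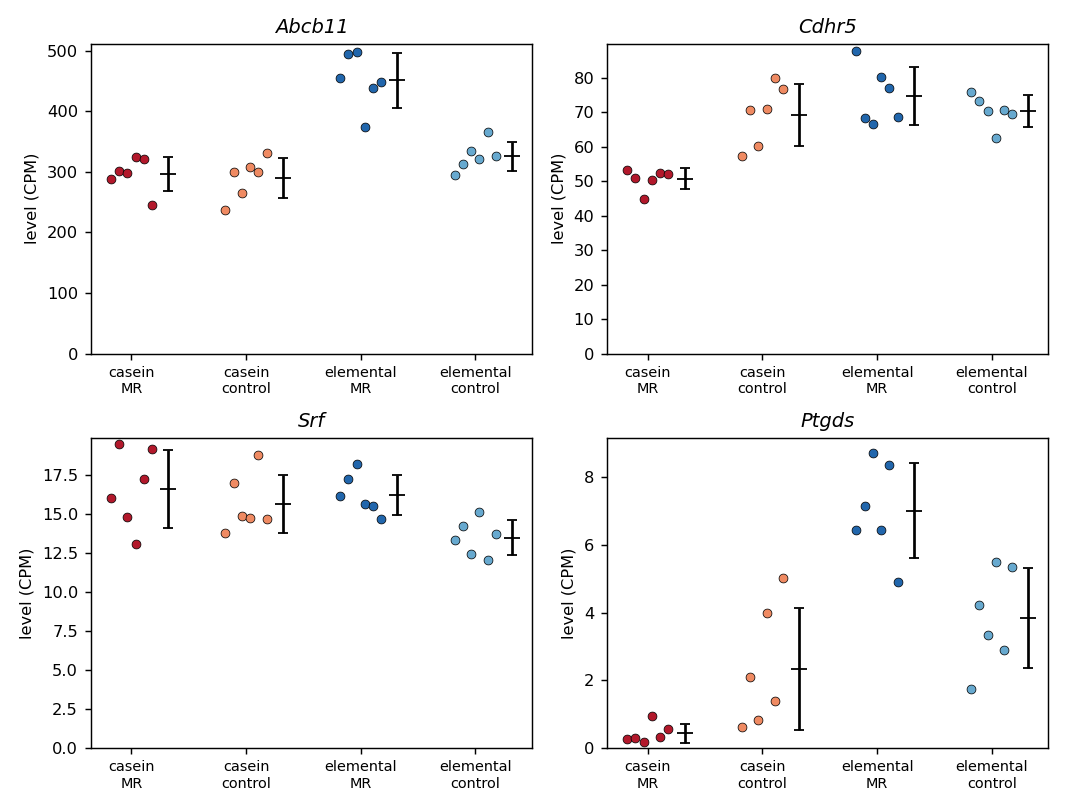
CPM in each library (points) with group mean and SD for Abcb11, Cdhr5, Srf and Ptgds, in the order casein MR, casein control, elemental MR and elemental control. Abcb11 is highest on elemental MR, with 373 to 498 CPM, Cdhr5 is lowest on casein MR, with 44.9 to 53.3 CPM, and Srf has group means between 13.5 and 16.6 CPM.

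Other cells that carry villin were followed through their markers. In bulk liver, fewer cells of a type and less RNA per cell cannot be told apart. Of 14 markers of cholangiocytes, the bile duct cells, 13 were in the table and 10 were tested. The 13 summed to between 47.8 and 72.8 CPM in casein MR libraries and between 66.3 and 118 CPM in casein control libraries. They summed to between 42.6 and 61.1 CPM on elemental MR and between 67.9 and 92.7 CPM on elemental control. The median sum was lower with restriction on both protein sources, at 56.9 against 83.5 CPM on casein and 52.0 against 78.4 CPM on elemental amino acids. The casein ranges overlapped, as did those of casein MR and elemental MR. The largest members of the sum were Sox9, Spp1 and Slc4a2. Mean levels of Sox9 and Spp1 were lower with restriction on both protein sources. Slc4a2 went the other way, with means of 13.8 against 12.1 CPM on casein and 13.6 against 11.8 CPM on elemental amino acids. On casein 0 of the 10 rose and 3 fell (Krt19, Sox9 and Spp1), against 10.6% and 12.7% of all genes. On elemental amino acids 0 rose and 1 fell, Sox9, by 1.29 ± 0.18, which is near the 6.78% and 6.64% of all genes. The call of Krt19 on casein was lost without any 1 of 5 libraries (C_MR_3412, C_MR_3425, C_MR_3433, C_MR_3438 or C_C_3429), with an adjusted p of up to 0.180 and a log2 value between -1.53 and -0.80. Of the defining markers, Krt7, Krt19 and Epcam had group means of at most 1.45 CPM, and Sctr was not analysed here. The part of these cells in the Vil1 levels was not tested.

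Of 17 intestinal markers 4 were in the table, and Alpi, Sis, Lct, Muc2, Cdh17 and Krt20 were not among them. Their sum lay between 125 and 175 CPM on casein MR, 116 and 208 CPM on casein control, 86.9 and 113 CPM on elemental MR and 109 and 156 CPM on elemental control, and most of it was Fabp2. Other members had another order: Slc5a1, the sodium-glucose transporter of the brush border, averaged 1.97 ± 0.646 CPM on casein MR, 1.81 ± 1.17 on casein control, 3.24 ± 1.19 on elemental MR and 1.59 ± 0.657 on elemental control (SD, n = 6 each). Its log2 value for elemental MR minus elemental control was 1.01 ± 0.36 (adjusted p = 0.0612). Lgals4, a galectin, averaged 13.6 ± 1.29, 10.4 ± 1.91, 13.9 ± 1.23 and 9.90 ± 2.02 CPM in the same group order. Fabp2, which binds fatty acids, fell on elemental MR against elemental control by 0.58 ± 0.14 (adjusted p = 0.00574), and Lgals4 rose by 0.49 ± 0.12 (adjusted p = 0.00799). So 1 of the 4 rose and 1 fell there, against 6.78% and 6.64% of all genes. With restriction on casein 1 rose and 0 fell, against 10.6% and 12.7%. For casein MR minus elemental MR 1 was higher and 0 lower, against 2.72% and 3.78%. Of 8 markers of the kidney proximal tubule only Lrp2 was in the table, at a sum of at most 0.958 CPM on casein MR, 1.46 on casein control, 0.451 on elemental MR and 1.95 on elemental control. At these low levels Lrp2 was called lower with restriction on both protein sources. Its log2 value was -1.44 on casein and -2.63 on elemental amino acids, where 12.7% and 6.64% of all genes were called lower. The 9 pancreatic genes summed to a median of 19.0 CPM on casein MR, 61.8 on casein control, 22.9 on elemental MR and 40.0 on elemental control. Most of the sum on casein MR, casein control and elemental MR was Cela1, with means of 17.6, 53.1 and 21.2 CPM. The next highest mean on casein control was that of Ctrb1, at 0.581 CPM. Leaving out elemental control library E_C_3430 gave a Vil1 value of 1.54 for elemental MR minus elemental control, and leaving out casein MR library C_MR_3438 gave -6.56 for casein MR minus elemental MR. The part of these other tissues in the Vil1 levels was not tested.

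The genes beside Vil1 on the chromosome did not follow it. The 5 nearest genes of the count table on either side were all tested. They were Aamp, Pnkd, Tmbim1, Slc11a1 and Ctdsp1 before it, and Usp37, Cnot9, Zfp142, Bcs1l and Rnf25 after it. Any annotated gene absent from the count table was passed over. Of these 10 only Ctdsp1, a phosphatase gene, passed in any comparison: it fell by 0.31 ± 0.06 on casein (adjusted p = 2.15e-04). Of all genes, 23.3% passed on casein, 13.4% on elemental amino acids and 6.5% for casein MR minus elemental MR. The share was 2.34% for the difference between the diet effects and 0.104% between the control diets. Tmbim1 had 0.20 ± 0.07 on elemental amino acids (adjusted p = 0.0508). Usp37, a deubiquitinase gene whose annotation overlaps that of Vil1 by 51 bases, had a log2 value of 0.23 ± 0.18 on casein, -0.03 ± 0.18 on elemental amino acids and 0.19 ± 0.18 for casein MR minus elemental MR. Since the strand setting of the counting is not given in the sources used here, reads in the overlap cannot be assigned. Usp37 averaged 3.22 CPM on elemental MR, where Vil1 averaged 7.72.

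**Figure D4:**
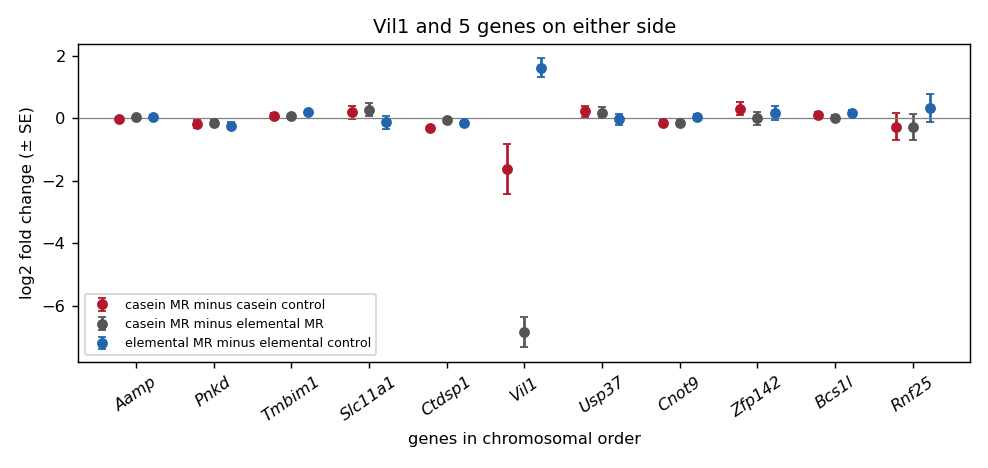
Log2 fold change (± SE) of Vil1 and the 5 nearest genes of the count table on either side of it, in chromosomal order. Colours mark casein MR minus casein control (red), casein MR minus elemental MR (grey) and elemental MR minus elemental control (blue). Vil1 stands at -1.63, -6.83 and 1.62, and the 10 neighbours lie between -0.31 and 0.33.

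The genes whose log2 CPM followed Vil1 most closely were found by Pearson's r over the 24 libraries, among 12190 genes with an average of at least 1 CPM. The libraries fall into the 4 diet groups, so r mainly reflects group levels, and it is given as a description. The 10 highest were Josd2 (r = 0.863), Ppfia1 (0.846), Ptgds (0.837), Gcat (0.811), Mmd2 (0.806), Abcb11 (0.7997), Ahsg (0.795), Gstm2 (0.788), Rdh16f2 (0.788) and Yif1b (0.765). Josd2, a deubiquitinase gene, averaged 20.1 ± 1.57 CPM on casein MR, 20.05 ± 2.20 on casein control, 27.1 ± 2.74 on elemental MR and 24.8 ± 1.94 on elemental control (SD, n = 6 each). Ppfia1 averaged 16.7 ± 1.12, 16.6 ± 0.744, 20.7 ± 0.702 and 20.1 ± 1.504 CPM in the same order. These genes shared the order of the protein sources but spanned far smaller ratios than Vil1.

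Ptgds, a lipocalin-type prostaglandin D synthase gene, was nearer to Vil1 in scale. Its casein MR libraries lay at 0.183, 0.252, 0.287, 0.330, 0.546 and 0.930 CPM, and its casein control libraries at 0.622, 0.822, 1.38, 2.10, 3.99 and 5.03 CPM. The elemental MR libraries lay at 4.92, 6.43, 6.43, 7.16, 8.38 and 8.73 CPM, and the elemental control libraries at 1.73, 2.88, 3.33, 4.21, 5.35 and 5.50 CPM. Casein control and elemental control overlapped in Ptgds, as they did not in Vil1. Mmd2 averaged 1.06 ± 0.404 CPM on casein MR, 1.91 ± 1.28 on casein control, 7.14 ± 2.19 on elemental MR and 3.36 ± 1.04 on elemental control. Gstm2, a glutathione transferase gene, averaged 52.7 ± 10.1 CPM on casein MR, 49.3 ± 6.01 on casein control, 106 ± 20.9 on elemental MR and 64.5 ± 11.7 on elemental control.

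The mirror image of Vil1 was led by Sema5b, a semaphorin gene, at r = -0.890. Sema5b averaged 12.4 ± 2.53 CPM on casein MR, 6.57 ± 3.03 on casein control, 1.48 ± 0.494 on elemental MR and 4.23 ± 1.33 on elemental control. Gm13775 (r = -0.872), Pdzrn3 (-0.856), Mogat1 (-0.808) and Celf2 (-0.796) came next. Mogat1, a monoacylglycerol acyltransferase gene of fat synthesis, averaged 5.02 ± 2.19 CPM on casein MR, 1.44 ± 1.05 on casein control, 0.473 ± 0.175 on elemental MR and 0.807 ± 0.423 on elemental control. In these genes casein MR was the highest group and elemental MR the lowest.

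**Figure D5:**
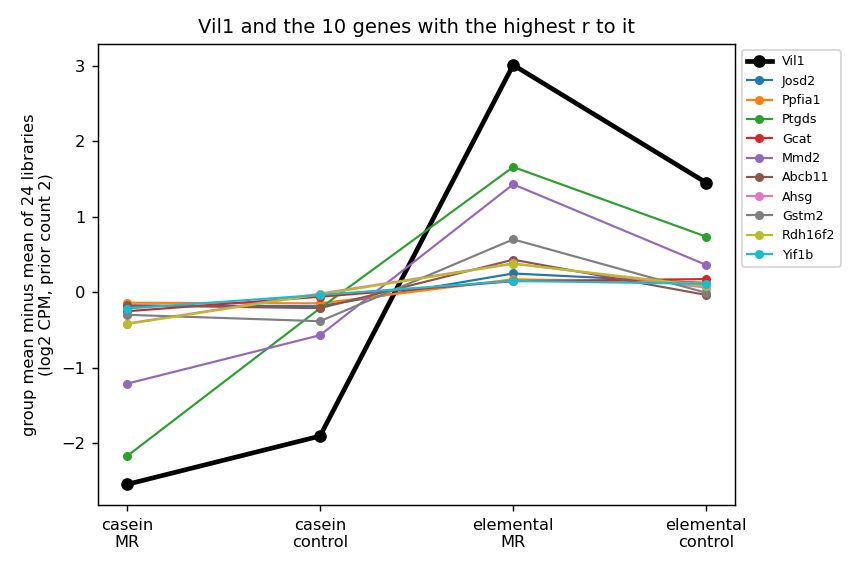
Group means of log2 CPM (prior count 2), each less the gene's mean over the 24 libraries, for Vil1 (black) and the 10 genes with the highest r to it, from casein MR on the left to elemental control on the right. The 10 genes were chosen for this likeness; Vil1 spans more than any of them, and Ptgds, Mmd2 and Gstm2 span more than the other 7.

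Inside the elemental diets, with the group means removed, other genes came closest to Vil1 over the 12 libraries. The highest r were those of Ankrd16 (0.915), Chp2 (0.864), Efcc1 (0.849), D630045J12Rik (0.830) and Gm12689 (0.824), and the lowest those of Sulf2 (-0.913), She (-0.892), Nrep (-0.864), Polr2b (-0.852) and Lancl1 (-0.848). None of these 10 was among the 10 highest or 5 lowest over all libraries. Of the 12190 genes compared, 13 exceeded 0.8 and 17 were under -0.8 over these 12 libraries. Whether chance alone would give as many was not tested.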

How the data were processed

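In all 24 mouse liver RNA libraries were analysed, 6 for each of 4 diets, grouped by their labels. The deposited raw table holds read counts per Ensembl gene for 15161 genes, the smallest gene total being 72. The deposited normalized table holds a signal equal to those counts divided by 1 size factor per library (0.745 to 1.32), tested on the values. It was used in an alternative only. The sources used here name no aligner, counter, strand setting or genome build. Symbols came from the deposited table (13002 genes) and the reference annotation (2119), and 40 genes had none.

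Counts were fitted with edgeR 4.0.16 in R 4.3.3 by the quasi-likelihood method: all 24 libraries, 1 mean per group, filterByExpr (13441 genes, 99.9% of reads), TMM scaling and Benjamini-Hochberg adjustment over all genes tested, with calls at an adjusted p under 0.05. CPM use TMM-scaled totals, and log2 CPM a prior count of 2. Standard errors are approximate: the log2 fold change, without its sign, divided by the square root of the quasi-likelihood F statistic. Counting intervals (95%) are exact and cover counting error only. Levels per kilobase use exon lengths of the reference annotation. Genes were named if they belonged to a list, neighboured Vil1, or had the 10 highest or 5 lowest r to it (5 and 5 within the elemental groups). Vil1, the lists and the tests were chosen with earlier results of these data known. Alternatives were limma-voom 3.58.1, DESeq2 1.42.0, other scalings, filters and thresholds, the compared groups alone, and each library left out. The steps were checked on simulated counts. Some listed genes are not reported here.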

Additional observations from a re-analysis of the deposited data

Results flagged for a closer look

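In casein MR, library C_MR_3431 held the highest Vil1 level of its group, 0.258 CPM, far from the other 5, which lay at or below 0.0574 CPM. It rests on 5 reads. For Cdhr5 the casein MR library C_MR_3425, at 44.9 CPM, lay apart below the other 5, whose lowest was 50.4 CPM. For Pls1 the casein control library C_C_3407, at 5.22 CPM, lay apart above the other 5, whose highest was 1.82 CPM. Among groups of samples with normally distributed values, chance sets a sample apart in this way in about 1 of 20. The screen covered Vil1, Vill, Gsn, Capg, Svil, Flii, Abcb11, Cdhr5, Espn, Pls1, Srf, Josd2, Ppfia1 and Ptgds in each diet group. At that rate, chance alone would set apart about as many libraries as were found. For the few Vil1 reads on casein MR the rate need not hold.

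Since restriction and oxidation cannot be told apart on casein, diet effects are compared here and not restriction alone. Their difference in the edgeR fit, casein minus elemental, passed for Cdhr5 (log2 value -0.54). For Abcb11 the value was -0.44, and its call was lost without any 1 of 17 of the 24 libraries (adjusted p up to 0.0841). Ptgds, with a log2 value of -3.27, also differed, but it was chosen for its likeness to Vil1 in these libraries, and its value is a description.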

How the results depend on the processing

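Of 158 Vil1 fold changes under other settings, 0 changed sign and 3 moved by more than the spread between libraries, all 3 without casein MR library C_MR_3431. With 1 library left out, the log2 value ranged from -2.90 to -1.09 for casein MR minus casein control, 1.53 to 1.70 for elemental MR minus elemental control, -4.52 to -2.71 for the difference between these effects, -4.11 to -3.31 for casein control minus elemental control, and -8.10 to -6.56 for casein MR minus elemental MR. The number of genes called between the control diets was 14 and varied most: 90 by the DESeq2 Wald test, 3 by limma-voom, 7 with the compared groups alone, 3 at an adjusted p under 0.01, and 5 to 33 with 1 library left out (33 without casein control library C_C_3407). At an adjusted p under 0.01, 974 genes passed for elemental MR minus elemental control, 153 for the difference between the effects and 450 for casein MR minus elemental MR, against 1803, 315 and 873; a stricter threshold passes fewer genes by construction. The cause of the other shifts was not tested. Of 65 counts of list members called, 8 moved without casein MR library C_MR_3438, among them the skeletal muscle genes, 7 of which were called on casein and 0 without it; 8 moved by the Wald test, 6 by limma-voom, 5 under the stricter filter, 2 each with no filter and upper quartile scaling, and 0 with DESeq2 size factors. The list counts without C_MR_3438 were added after seeing the data. The difference between the effects needs all groups and has no value with the compared groups alone. No paired analysis was possible because no library number is shared between groups. Casein levels of Vil1 rest on 25 reads in all, which limits any statement on restriction there.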
